A study of Homo sapiens with 24 samples.

Results

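The comparison was of doxycycline (DOX) against no DOX across 3 stable THP-1 lines, with the line held as a block. All 24 arrays of the series entered it, 12 with DOX and 12 without, chosen by the DOX label alone. THP-1 is a human monocytic leukaemia line, here obtained from ATCC, and total RNA was measured on Affymetrix Human Gene ST arrays. The vector line carried the empty pSLIK_Neo lentiviral vector, the NLRP4 line the same vector with 3X FLAG-tagged NLRP4, and the NOD1 line the vector with 3X FLAG-tagged NOD1, each coding sequence under a tetracycline-inducible (TRE) promoter. All 3 lines were infected at low copy and selected with G418, so the vector, the selection and the promoter system are common to every group. Each line gave 4 arrays without treatment and 4 arrays of cells given DOX at 1 µg/ml for 6 h. Whether the 4 wells of a group were separate cultures is not said, so every p below measures the spread between wells, which may be technical. The labels give the plate order as assigned in advance and not randomized, and within each line they number the uninduced arrays before the DOX arrays. An effect of DOX and one of plate or array order cannot be told apart here.

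DOX is a tetracycline antibiotic. In inducible systems it binds the reverse tetracycline transactivator, which then sits on the TRE promoter and switches on the cloned sequence. Tetracyclines bind the bacterial ribosome and can also slow protein synthesis on the related mitochondrial ribosome. They bind metal ions and inhibit matrix metalloproteinases, and slowed mitochondrial translation is known to call on the ATF4 branch of the integrated stress response. An effect of DOX on the cell itself would be present in the vector line as well as in both expressing lines, which is the question that the mean effect over the lines addresses.

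The labels were first checked on the induced genes. NOD1, a cytosolic receptor for bacterial peptidoglycan fragments, had a mean log2 signal of 8.74 without DOX and 12.75 with DOX in the NOD1 line, against 8.33 and 8.40 in the vector line and 8.29 and 8.52 in the NLRP4 line. NLRP4, a receptor of the same family, stood at 8.09 without DOX and 11.93 with DOX in the NLRP4 line, against 6.92 and 7.05 in the vector line and 7.03 and 7.03 in the NOD1 line. Both genes therefore followed their labels, each in a single line, and neither counts as shared. These were also the 2 genes called for a DOX effect that differed between lines (limma F test, adjusted p 1.00e-12 for NOD1 and 1.35e-09 for NLRP4), which was 0.0109% of the 18417 genes tested, while 1113 (6.04%) had an unadjusted p under 0.05. Of the listed THP-1 monocytic markers, 16 of the 20 measured lay above the median gene, while 8 of 10 T and NK cell markers lay near the low end of signal, meaning under the 25th percentile of gene means, 7.80. The other lists were less clear, with 1 of 5 B cell, 3 of 6 erythroid and platelet, 1 of 7 epithelial and kidney and 2 of 6 fibroblast markers near the low end, and 0, 0, 3 and 1 of them above the median gene. No marker gene of the 6 cell type lists was called for DOX.

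A shared DOX effect was called for 3 of 18417 genes, or 0.0163%, at a Benjamini-Hochberg adjusted p under 0.05 in limma. CERS5 and ADAMTS1 rose (0.0109% of genes were called higher), and NAV3 fell (0.00543% were called lower). All 3 moved the same way in each line. The sign alone says little, because 4543 genes, or 24.7%, had the same sign in all 3 lines, 12.7% lower and 2203 genes higher. An unadjusted p under 0.05 was reached by 1005 genes, or 5.46%, of which 509 (2.76%) were higher and 496 (2.69%) lower. That split rests on the scaling of the arrays: it was 1921 higher and 51 lower on the values as deposited, and 219 higher and 1226 lower with each array centred on its median. The median change of all genes moved with it, from 0.00 after quantile normalization to 0.10 as deposited and −0.04 after centring. Before normalization the array medians averaged 8.52 ± 0.212 (SD, n = 12) without DOX and 8.65 ± 0.154 (SD, n = 12) with DOX (two-sided permutation test over arrays, p = 0.107). This pooled test hides a difference between lines. In the NLRP4 line the medians were apart, at 8.32 to 8.53 without DOX and 8.75 to 8.85 with DOX. They overlapped in the vector line (8.06 to 8.82 against 8.57 to 8.73) and the NOD1 line (8.3 to 8.81 against 8.28 to 8.62). Their mean was higher with DOX in the vector line and lower in the NOD1 line. With the array median added to the fit as a covariate, CERS5, ADAMTS1 and NAV3 kept their calls. The part of that brightness in any gene's change was not tested beyond these settings.

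CERS5 encodes ceramide synthase 5, an enzyme of the endoplasmic reticulum that joins a sphingoid base to a fatty acyl chain to make ceramide, with a preference for palmitoyl-CoA. The gene lies on the minus strand at chr12:50129289-50167369 in RefSeq GRCh38.p14. The start-site windows of the called genes are shown because these are the stretches in which promoter elements would be looked for. Each runs from 250 bases before to 50 bases after an annotated start, 5′ to 3′ on the gene's strand, from RefSeq GRCh38.p14. Of the 3 called genes, 2 had an entry. Capitals mark matches to the GC box (GGGCGG on either strand).
CERS5, chr12:50167320-50167619, minus strand: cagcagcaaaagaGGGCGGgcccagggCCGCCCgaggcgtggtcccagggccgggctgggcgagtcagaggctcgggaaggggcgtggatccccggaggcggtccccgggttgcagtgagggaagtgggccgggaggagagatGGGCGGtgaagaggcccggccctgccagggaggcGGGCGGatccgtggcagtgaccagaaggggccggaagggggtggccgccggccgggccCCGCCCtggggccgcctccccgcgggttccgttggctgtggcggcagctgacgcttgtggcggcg
NAV3, the first of 2 entries, chr12:77830644-77830943, plus strand: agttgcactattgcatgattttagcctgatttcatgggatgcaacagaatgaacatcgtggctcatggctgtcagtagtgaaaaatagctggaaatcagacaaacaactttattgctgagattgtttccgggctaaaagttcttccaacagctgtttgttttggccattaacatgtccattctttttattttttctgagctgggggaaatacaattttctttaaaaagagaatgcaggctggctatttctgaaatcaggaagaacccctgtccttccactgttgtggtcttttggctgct
The CERS5 window is 76.3% G and C and holds 5 GC boxes, a motif present in 44.6% of 27305 windows of that length. The NAV3 window is 40.0% G and C and holds none. That window lies inside the gene span given for NAV3, and which NAV3 start these cells use was not tested. Neither holds a match on either strand to the cyclic AMP response element TGACGTCA (1.98% of windows), AP-1 TGANTCA (7.76%), the E-box CACGTG (7.43%), the CCAAT box CCAAT (35.7%) or the ATF4 element TGATGNAAN (3.67%). None of these 6 motifs lies within another as spelled, and a match describes the letters alone.

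CERS5 in the vector line read 8.56, 8.64, 8.84 and 8.82 on the log2 scale without DOX and 9.56, 9.08, 9.38 and 9.05 with DOX. In the NLRP4 line it read 8.51, 8.90, 8.84 and 8.61 without DOX and 8.91, 9.47, 9.08 and 9.23 with DOX. In the NOD1 line it read 8.07, 8.61, 8.81 and 8.77 without DOX and 9.54, 9.03, 9.57 and 9.40 with DOX. Every DOX array of CERS5 was above every array without DOX in all 3 lines, and it was the only one of 18417 genes (0.00543%) for which that held. It also held over the lines pooled, by a narrow margin: the highest array without DOX was at 8.90 and the lowest with DOX at 8.91. The shared rise of CERS5 was 0.61 (SE 0.0927, 95% interval 0.42 to 0.80), or 1.53-fold, with an adjusted p of 0.00568 in limma. An exact two-sided permutation of the DOX label within lines gave an unadjusted p of 5.83e-06, the smallest that its 343000 arrangements allow. CERS5, ADAMTS1 and NAV3 were picked by this same contrast. Their permutation p-values and the positions of their arrays therefore describe these arrays and add no independent support. By line the rise was 0.55, 0.46 and 0.82 in the vector, NLRP4 and NOD1 lines (SE 0.158 each), and the differences between lines had an unadjusted p of 0.269 (limma F test, adjusted p 0.914). The call was kept in each of the 24 fits that left out 1 array (0.55 to 0.64), but was lost with any line left out, where fewer arrays enter and the rise was 0.64, 0.69 and 0.51 (adjusted p 0.309, 0.113 and 0.433 without the vector, NLRP4 and NOD1 lines) and without the 4 arrays of lowest deposited median, 8.06 to 8.32 (0.57, adjusted p 0.208).

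ADAMTS1 encodes a secreted metalloproteinase with thrombospondin motifs that cleaves proteoglycans of the extracellular matrix. It lies at chr21:26835755-26845409 (GRCh38.p14). In the vector line it read 9.21, 9.11, 8.99 and 9.13 without DOX and 9.52, 9.48, 9.78 and 9.62 with DOX. In the NLRP4 line it read 9.40, 9.49, 9.66 and 9.54 without DOX and 9.94, 10.14, 9.73 and 9.42 with DOX. In the NOD1 line it read 9.77, 9.69, 9.72 and 9.77 without DOX and 10.14, 10.05, 10.14 and 10.38 with DOX. The groups did not overlap in the vector and NOD1 lines, and in the NLRP4 line 1 DOX array fell within the range of the untreated ones. Of the 12 DOX arrays, 11 were above the mean of their own line without DOX. The untreated levels also differed by line, lowest in the vector line and highest in the NOD1 line, so that the untreated NOD1 arrays reached the level of the treated vector arrays. The shared rise was 0.41 (SE 0.0640, 95% interval 0.28 to 0.54), or 1.33-fold, with an adjusted p of 0.00675 in limma and an unadjusted exact permutation p of 2.92e-05. By line it was 0.49, 0.29 and 0.44 in the vector, NLRP4 and NOD1 lines. ADAMTS1 kept its call in 24 of 24 fits without 1 array (0.38 to 0.45) and without the NLRP4 line. It lost it without the vector line (0.37, adjusted p 0.669), without the NOD1 line (0.39, adjusted p 0.433), with centred arrays (0.37, adjusted p 0.246) and without the 4 dimmest arrays (0.37, adjusted p 0.208).

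NAV3 encodes neuron navigator 3, a protein that binds microtubule plus ends. Its gene spans chr12:77571862-78213010 on the plus strand (GRCh38.p14). In the vector line NAV3 read 9.44, 9.92, 9.74 and 9.78 without DOX and 9.57, 9.33, 9.38 and 9.44 with DOX. In the NLRP4 line it read 9.93, 9.98, 9.84 and 9.74 without DOX and 9.24, 9.54, 9.59 and 9.36 with DOX. In the NOD1 line it read 10.33, 10.27, 10.20 and 10.29 without DOX and 9.99, 9.84, 9.96 and 9.93 with DOX. The groups of NAV3 were apart in the NLRP4 and NOD1 lines and overlapped in the vector line, where 1 untreated array was as low as the treated ones. None of the 12 DOX arrays (0 of 12) was above its own line's untreated mean. The shared fall was −0.36 on the log2 scale (SE 0.0536, 95% interval −0.47 to −0.25), 1.28-fold lower, with an adjusted p of 0.00568 in limma and an unadjusted exact permutation p of 1.75e-05. By line it was −0.29, −0.44 and −0.34. Like CERS5, NAV3 kept its call in all 24 fits without 1 array (−0.39 to −0.33) and lost it with any line left out (−0.39, −0.31 and −0.36, adjusted p 0.0831, 0.362 and 0.433, without the vector, NLRP4 and NOD1 lines) and without the 4 dimmest arrays (−0.33, adjusted p 0.185). It was also not called on deposited values (−0.26, adjusted p 0.323) or centred arrays (−0.40, adjusted p 0.104).

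**Figure D1:**
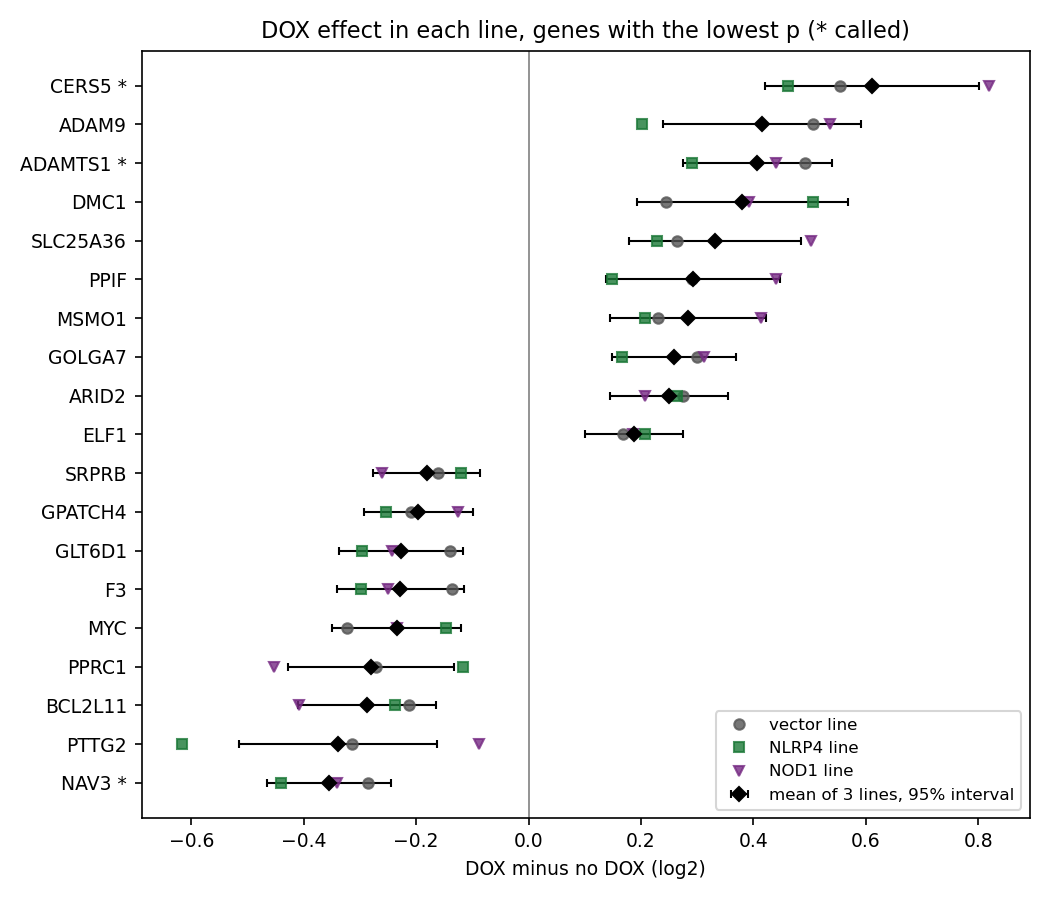
Shared DOX effect (log2) with its 95% interval for the genes with the lowest p other than NOD1, and the effect in each line as separate points. CERS5 at 0.61, ADAMTS1 at 0.41 and NAV3 at −0.36 were called; the other genes were not.

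The genes with the next lowest p did not pass, so only their values are given. They were picked by this same contrast, so counts of DOX arrays above or below the untreated mean add no independent support. In the main fit the adjusted p stepped from 0.00675 for ADAMTS1 to 0.154 for ARID2 (limma). By rank of p, the first 2 genes outside the threshold were ARID2 and ADAM9, which shared their adjusted p with GOLGA7 and BCL2L11. Some of these genes passed in other fits, as given below. ARID2, a subunit of the PBAF chromatin-remodelling complex, had a change of 0.25 (SE 0.0511, adjusted p 0.154 in limma). Its levels ran from 10.37 to 10.91 over the 12 arrays without DOX and from 10.79 to 11.20 over the 12 with DOX, and all 12 DOX arrays were above their own line's untreated mean. ADAM9, a membrane-bound metalloproteinase and disintegrin, had a change of 0.42 (SE 0.0856, adjusted p 0.154). In the vector line ADAM9 read 10.73, 11.21, 11.09 and 11.19 without DOX and 11.58, 11.27, 11.75 and 11.65 with DOX. The NLRP4 line gave 11.18, 11.08, 11.39 and 11.12 without DOX and 11.28, 11.21, 11.61 and 11.48 with DOX. The NOD1 line gave 10.37, 10.02, 10.49 and 10.29 without DOX and 11.06, 10.48, 10.64 and 11.13 with DOX. The ADAM9 groups were apart in the vector line and overlapped in both expressing lines, and its untreated level was lowest in the NOD1 line. On the inner side the last 2 genes by rank of p were CERS5 and ADAMTS1, and NAV3 shared the adjusted p of CERS5.

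GOLGA7, a Golgi protein that partners a palmitoyltransferase of RAS, had a change of 0.26 (adjusted p 0.154), with 12 of 12 DOX arrays above their own untreated mean. BCL2L11, which encodes the pro-apoptotic protein BIM, had a change of −0.29 (SE 0.0596, adjusted p 0.154), with 0 of 12 DOX arrays above. Its groups did not overlap in the NLRP4 line (9.28, 9.45, 9.43 and 9.43 without DOX against 9.02, 9.25, 9.24 and 9.12 with DOX) or in the NOD1 line (9.48, 9.93, 9.97 and 9.70 against 9.42, 9.43, 9.41 and 9.21). With array weights estimated by limma, BCL2L11 (−0.30, adjusted p 0.0306) and ARID2 (0.25, adjusted p 0.0483) passed the threshold. SLC25A36, a mitochondrial carrier of pyrimidine nucleotides, stood at 0.33, and ELF1, an ETS-family transcription factor, at 0.19. MYC, a transcription factor that drives growth and ribosome production, had a change of −0.23 (SE 0.0555, adjusted p 0.410). Its vector-line arrays read 11.09, 11.16, 11.06 and 10.81 without DOX and 10.68, 10.69, 10.72 and 10.73 with DOX, so that the groups were apart there, and they overlapped in the other 2 lines. Values of −0.23 for F3, the tissue factor that starts coagulation, −0.28 for PPRC1, a coactivator related to PGC-1 alpha, −0.18 for SRPRB, a subunit of the signal recognition particle receptor, and 0.29 for PPIF, the mitochondrial cyclophilin, had adjusted p-values up to 0.608. GPATCH4, a nucleolar protein, stood at −0.20, but a second probe set of the gene read 0.07. GLT6D1 (−0.23), DMC1 (0.38) and PTTG2 (−0.34) were near the low end of signal. Among the 20 genes with the lowest p, 11 had a change above 0 and 9 below. The list of 20 also held NOD1 itself, whose shared change of 1.44 came from 1 line.

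Over all genes the SD of the change was 0.0802, the 1st and 99th percentiles were −0.20 and 0.20, and the median SE was 0.0642. For 18182 genes, or 98.7%, the 95% interval lay within ±0.5 on the log2 scale, and for 18405 genes, or 99.9%, within ±1. A change beyond 0.5 was seen in 8 genes, and beyond 1 in only the 2 induced genes, NOD1 at 1.44 and NLRP4 at 1.32. Beside these and CERS5, chosen here after their values were seen, were SNORD12C at −0.67 (SE 0.354), SNORA5A at −0.61 (SE 0.287), SNORD4B at −0.56 (SE 0.267), KIAA1107 at 0.52 (SE 0.161) and MIR222 at −0.51 (SE 0.168). The first 3 are small nucleolar RNAs, which guide modification of ribosomal and other RNAs, and none of these 5 was called. All of them but SNORD4B were near the low end of signal, here meaning that the lowest group mean of the gene was under 7.80. In the vector, NLRP4 and NOD1 lines KIAA1107 read 0.51, 0.02 and 1.03, and SNORD4B −0.52, −0.09 and −1.06.

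**Figure D2:**
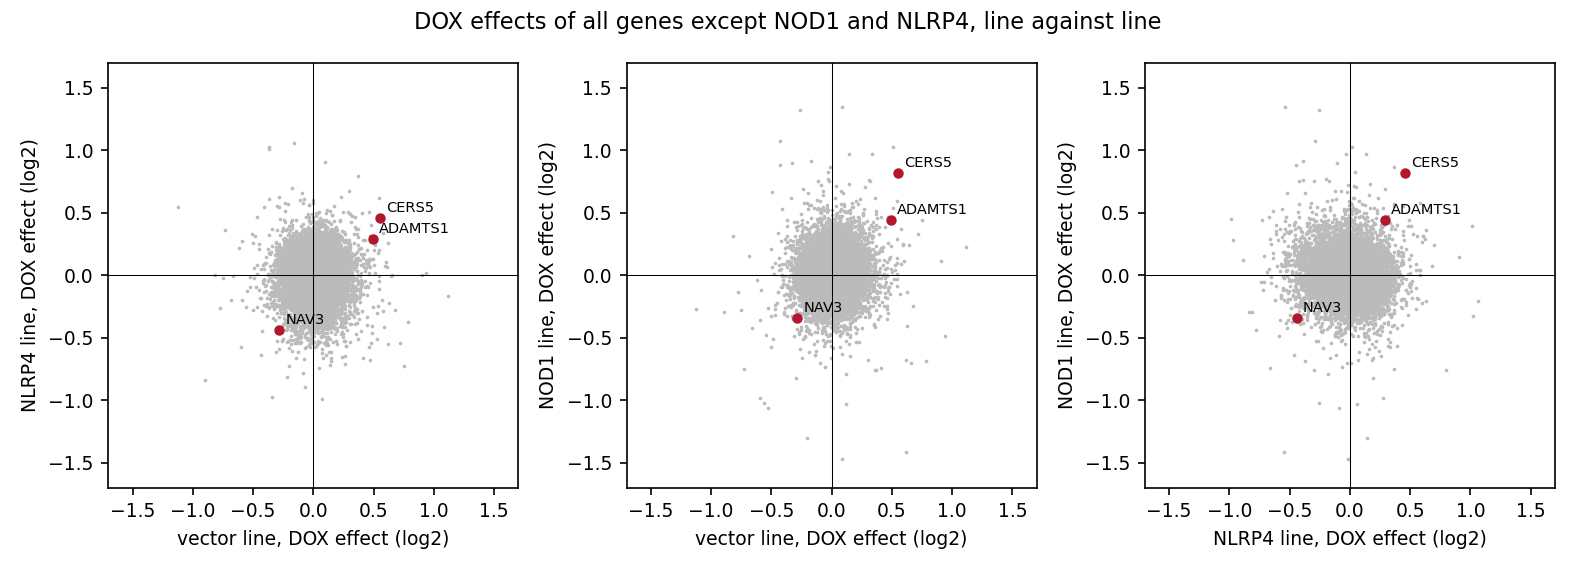
DOX effect (log2) of each gene in one line against another, for all 18417 genes but NOD1 and NLRP4. CERS5 and ADAMTS1 lie up and to the right of the cloud and NAV3 at its lower left edge in each panel; over all genes the Pearson r is 0.01, 0.05 and −0.09.

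Within single lines limma called no gene for DOX in the vector line (0 of 18417, with 622 genes at an unadjusted p under 0.05, and 498 genes, or 2.7%, whose 4 DOX arrays lay all above or all below the 4 untreated ones). It called 3 in the NLRP4 line (NLRP4, HSD3BP4 and METTL23; 0.0163%, with groups apart in 5.14% of genes) and 2 in the NOD1 line (NOD1 and KLHL5; 0.0109%, with groups apart in 2.35%). None of the 3 shared genes was called in a line alone. Across genes, the DOX effects of 2 lines had a Pearson r of 0.01 for the vector and NLRP4 lines, 0.05 for the vector and NOD1 lines and −0.09 for the NLRP4 and NOD1 lines (Spearman 0.03, 0.04 and −0.09). These describe genes within one data set and not independent replicates, and on deposited values they were 0.20, −0.01 and −0.20.

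Each line was then held out, and genes chosen on the 16 arrays of the other 2 were looked up in it. In the lines other than NLRP4 only ADAMTS1 was called, and in the held-out NLRP4 line ADAMTS1 had the same sign with overlapping groups. In the lines other than vector, and in those other than NOD1, limma called 0 genes at the adjusted threshold, with 969 and 1285 genes at an unadjusted p under 0.05. Of the 100 genes with the lowest p in the other lines, a number set after the data were seen, 58 had the same sign in the held-out vector line, 47 in the NLRP4 line and 54 in the NOD1 line, against 51.8%, 48.3% and 48.8% of all genes. Groups apart in that direction were seen for 7, 4 and 5 of these 100 genes, against 1.57%, 2.35% and 1.21% of all genes. These counts moved with the scaling. On deposited values the same sign was held by 85, 71 and 39 of the 100, against 71.8%, 56.9% and 35.6% of all genes, and groups were apart for 4, 11 and 2, against 1.15%, 20.8% and 0.391%. With centred arrays the same sign was held by 70, 52 and 36, against 59.3%, 51.8% and 43.8%, and groups were apart for 1, 3 and 3, against 1.34%, 10.7% and 0.928%.

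**Figure D3:**
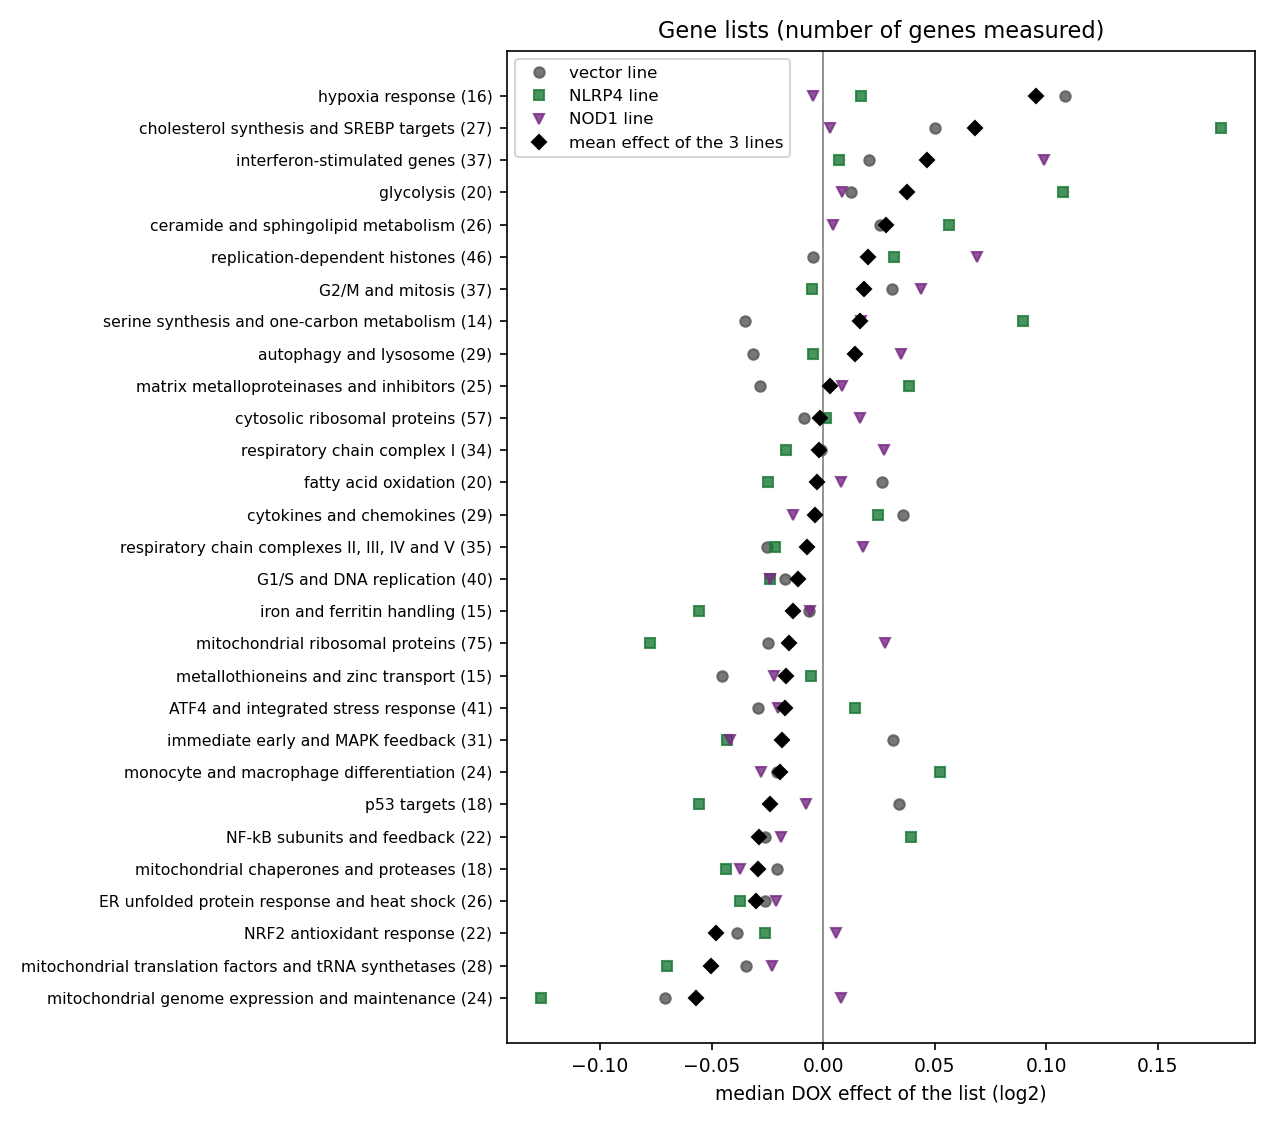
Median DOX effect (log2) of the measured members of each gene list, as the mean effect of the 3 lines and in each line. The medians of the mean effect run from −0.06 for mitochondrial genome expression to 0.10 for the hypoxia list, around 0.00 for all genes tested.

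Processes that DOX is known to touch, and others of monocytic cells, were described through 30 gene lists with 949 entries, of which 851 were measured; the 15 mitochondrially encoded transcripts had no measured member. The lists were chosen with earlier results of these data known, so a called member in a list is no independent match to a known action of DOX. Only 2 of 29 lists with measured genes held a called member, the ceramide list with CERS5 and the metalloproteinase list with ADAMTS1. NAV3 was in none of them. Medians ran from −0.06 to 0.10, beside 0.00 for all genes, and the median of the mean effect can lie outside the 3 line medians. Below, members beside the one with the lowest p were picked after their values were seen.

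Among mitochondrial genes, 0 of 75 mitochondrial ribosomal proteins were called, beside 0.0163% of all genes, so the count says nothing particular of the list. Their median change was −0.02, and MRPS18A, the member with the lowest p, had a log2 change of 0.17. Of 28 translation factors and tRNA synthetases of the organelle none passed (median −0.05), and TSFM, an elongation factor, stood at −0.21 with −0.10, −0.45 and −0.09 by line. The list of mitochondrial genome expression had 21 of 24 members below 0, and none was called. In limma 5 members had an unadjusted p under 0.05 below 0 and 0 above, beside 2.69% of all genes below 0. This count was taken only after quantile normalization. Over all genes the number below 0 moved with the scaling, from 496 to 51 on deposited values and 1226 with centred arrays. The list medians were −0.07, −0.13 and 0.01 in the vector, NLRP4 and NOD1 lines. The sign was the same in all lines for 6 members, beside 24.7% of all genes: TRMT10C, TFB2M, MTERF2, MTERF3 and POLG below 0, and HSD17B10 above. TRMT10C, a subunit of mitochondrial RNase P, read −0.28 (SE 0.0747, adjusted p 0.612), with 0 of 12 DOX arrays above the untreated mean of their line. It was named for the lowest p of its list, so that count adds no independent support. TFB2M, a mitochondrial transcription factor, read −0.19, MTERF2 −0.24 and TWNK, the mitochondrial helicase, −0.22. Subunits of respiratory complex I had a median of 0.00 over 34 genes, of which 0 had even an unadjusted p under 0.05, and those of the other complexes −0.01 over 35. Mitochondrial chaperones and proteases had a median of −0.03 over 18.

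No stress list held a called gene. Of 41 measured targets and regulators of the integrated stress response, 2 had an unadjusted p under 0.05 above 0 and 2 below, beside 2.76% and 2.69% of all genes. The median of that list was −0.02, with 12 members above 0 and 29 below. ATF4 itself read 0.11, DDIT3, which encodes CHOP, 0.14, ASNS, the asparagine synthetase, −0.08, and CTH, which makes cysteine, −0.17. CTH was near the low end of signal. NRF2 targets had a median of −0.05 over 22 genes, with ME1, a malic enzyme, at −0.19. The unfolded protein response and heat shock list had a median of −0.03 over 26, with HERPUD1, a factor of ER-associated degradation, at −0.20. The p53 targets had −0.02 over 18. Serine and one-carbon metabolism stood at 0.02 over 14. Metal-related lists were near 0 as well: −0.01 over 15 iron genes, with STEAP3, a ferrireductase, at −0.13, and −0.02 over 15 metallothioneins and zinc transporters, with SLC39A14, a zinc and iron importer, at −0.19 and MT2A at 0.13.

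In lipid metabolism CERS5 was the single called member of 26 measured ceramide and sphingolipid genes, beside 0.0163% of all genes. This list too was chosen with earlier results known, so the count says nothing particular of it. The other ceramide synthases read 0.14 for CERS2, 0.06 for CERS3, −0.05 for CERS4 and −0.03 for CERS6. CERT1, which carries ceramide from the endoplasmic reticulum to the Golgi, read 0.28 (SE 0.0860, adjusted p 0.781). Cholesterol synthesis had a median of 0.07, with line medians of 0.05, 0.18 and 0.00 in the vector, NLRP4 and NOD1 lines. Of its 27 genes 24 were above 0, beside 9211 of all 18417 genes. The sign was the same in all lines for 10 of the 27, or 37%, beside 24.7% of all genes. MSMO1, a sterol demethylase, had the lowest p, with a change of 0.28 (SE 0.0675, adjusted p 0.410). In the NOD1 line MSMO1 read 10.42, 10.14, 10.40 and 10.43 without DOX and 10.57, 11.05, 10.71 and 10.72 with DOX, with the groups apart. In the vector and NLRP4 lines its groups overlapped. Fatty acid oxidation had a median of 0.00 over 20, with CPT1A, the carnitine palmitoyltransferase of the outer membrane, at −0.16.

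Of 25 metalloproteinases and inhibitors, ADAMTS1 was the single called member, beside 0.0163% of all genes, and the median was 0.00. Because the list was chosen with earlier results known, that count says nothing particular of the list. MMP9 read −0.01, MMP14 0.03, the inhibitor TIMP1 0.11 and TIMP3 −0.24. Hypoxia genes had the highest median, 0.10 over 16, with 11 above 0 and line medians of 0.11, 0.02 and −0.0047 in the vector, NLRP4 and NOD1 lines. BNIP3L, a receptor for mitophagy, read 0.29 (SE 0.0904) with 0.34, 0.26 and 0.27 by line, and was not called. Glycolysis had a median of 0.04 over 20, and autophagy and lysosome genes 0.01 over 29.

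The immune lists held no called gene. NF-kB subunits and feedback genes had 5 of 22 with an unadjusted p under 0.05 below 0 and 0 above, beside 2.69% of all genes below 0: NFKB2 at −0.17, TRAF1 at −0.17, BCL2A1 at −0.20, NFKBIZ at −0.15 and NFKBIA at −0.19. TRAF1 and BCL2A1 were above 0 in the NLRP4 line, at 0.08 and 0.05. The count of 5 was taken only after quantile normalization, and such counts over all genes moved with the scaling. Cytokines and chemokines had a median of 0.00 over 29, with CCL5 at 0.16 and CCL20 at 0.29. Interferon-stimulated genes had 0.05 over 37, with IRF9 at 0.19. Of 31 immediate early and MAPK feedback genes the lowest p was that of MYC. Macrophage differentiation genes had −0.02 over 24, with LPL, lipoprotein lipase, at −0.18 and line values of −0.33, −0.27 and 0.04. Growth and division lists had medians of −0.01 over 40 replication genes, 0.02 over 37 mitotic genes, 0.02 over 46 histone genes and 0.00 over 57 cytosolic ribosomal proteins. The members with the lowest p in these lists had log2 changes of −0.10 for SLBP, 0.10 for PRC1, 0.32 for H3C11 and 0.09 for RPS2; with centred arrays PRC1 read −0.079 and RPS2 −0.13.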

How the data were processed

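Gene expression was measured in 24 samples, 4 in each of 6 groups, with 1 array each. The authors deposited log2 signals per probe set, made with RMA and the oligo package per the submitters' processing notes without version or build numbers in the sources used here. The array medians of the deposited log2 values ran from 8.06 to 8.85, and replicates correlated at 0.982 to 0.993. Among the 33297 probe sets, 19460 carried 1 gene symbol in the platform annotation, 1754 carried several and 12083 were unnamed here; 19429 of the former matched a RefSeq GRCh38.p14 gene by Entrez ID. The brightest probe set stood for its gene (18417 genes, 769 with more than 1 probe set), and the gene table was quantile-normalized. In R 4.3.3 with limma 3.58.1, each gene was fitted with line and DOX as terms (20 residual degrees of freedom), and 6 group means gave the effects by line and their F test. Adjusted p-values are Benjamini-Hochberg over all genes, called under 0.05. The number of arrays limits the precision. The fit was also run on simulated data with independent noise and no effect of array brightness or order, so that run does not cover those.

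The members and lists were chosen with earlier results of these data known. Named genes are NOD1, NLRP4, the 20 with the lowest p (all called ones included), the lowest-p or called members of each list and those just inside and outside the threshold. Any other gene named was picked once its values were known, as the text says. Alternatives changed the normalization, the residual spread, weights, prior, probe set rule, low-signal filter, arrays and lines. No background level was measured here, so changes near the low end may be understated.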

Additional observations from a re-analysis of the deposited data

Results flagged for a closer look

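The DOX effect differed between lines for NOD1 (limma F test, adjusted p 1.00e-12) and NLRP4 (adjusted p 1.35e-09), each induced in the line that carries it.

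A probe set with no gene name here, 8113761, lay outside the gene comparison and showed a change of 0.64 (SE 0.0867), 1.56-fold, when all 33297 probe sets were tested together (limma, adjusted p 0.00657, an alternative chosen after seeing the data). It read 7.72, 7.89, 7.75 and 7.94 without DOX and 8.88, 8.24, 8.75 and 8.26 with DOX in the vector line. In the NLRP4 line it read 7.49, 7.81, 7.86 and 7.42 against 8.33, 8.17, 8.40 and 8.53, and in the NOD1 line 7.74, 7.91, 7.65 and 7.98 against 8.15, 8.02, 8.40 and 8.65. All 12 DOX arrays were above all 12 others, as for CERS5, with changes of 0.71, 0.72 and 0.49 by line. The margin was narrow here too, with the highest array without DOX at 7.98 and the lowest with DOX at 8.02. Its untreated mean in the NLRP4 line, 7.64, was under the 7.80 that marks the low end for genes.

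Single arrays that stood apart from the 3 others of their group, with the gap as a share of the group's range, were found in 20 of 282 gene groups and array medians. Chance flags about 1 in 20 groups. Among genes near the threshold they were ARID2 in the untreated vector line (array 1 low, 0.952), GOLGA7 in the DOX vector line (array 1 high, 0.878) and BCL2L11 in 3 groups, each with a low array (0.916 in the DOX vector line, 0.895 in the untreated NLRP4 line, 0.914 in the DOX NOD1 line). Others with low p were MSMO1 in the untreated NOD1 line (0.897), DMC1 in the untreated and DOX vector line (0.968 and 0.895) and PTTG2 in the DOX vector line (0.924). Among list members the gaps were 0.896 for MRPS18A and 0.834 for IRF9 in the untreated vector line, 0.841 for CTH and 0.839 for RPS2 in the untreated NLRP4 line, and 0.868 for GADD45A and 0.854 for CPT1A in the DOX NLRP4 line. In the untreated NOD1 line they were 0.842 for CCL5 and 0.852 for PRC1, and in the DOX NOD1 line 0.911 for TSFM and 0.833 for LPL. The deposited median of 1 untreated NLRP4 array, 8.32, was low in its group (0.905). No array of CERS5, ADAMTS1 or NAV3 stood apart in this way.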

How the results depend on the processing

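The main count of shared genes was 2 higher and 1 lower, all 3 moving the same way in each line. Leaving out 1 array gave 2 to 3 higher, 1 to 1 lower and 3 to 4 moving the same way; GOLGA7 was added without array 4 of the untreated NLRP4 line and ARID2 without array 3 of the untreated NOD1 line. Values as deposited gave 0 lower. Centred arrays gave 1 higher, 0 lower and 1 moving the same way. A fit of 6 group means gave 4 higher, with NOD1 and NLRP4 added, and 5 moving the same way. Array weights gave 2 lower and 5 moving the same way. Without the 4 dimmest arrays, and without the vector or the NOD1 line, 0 were higher, 0 lower and 0 moved the same way; without the NLRP4 line the counts were 1, 0 and 1. These last fits use fewer arrays, and the cause of these and the other shifts was not tested. In the held-out look-up, deposited values called 1 gene (CERS5) in the lines other than vector and 0 in those other than NLRP4, and centred arrays 0 in the latter. Of the named-gene values over all alternatives, 1676 kept direction and side of the threshold, 14 lost and 6 gained the call, and 2 turned: PRC1 (−0.079) and RPS2 (−0.13) with centred arrays. Most named genes were not called in the main fit, so keeping the side mostly meant staying uncalled. Over 37 alternatives each, CERS5 and ADAMTS1 kept their call in 33 and NAV3 in 31. Of the list medians under the other 2 scalings, 32 moved by more than the SD of the 3 line medians and 26 did not. No paired analysis was possible because the array numbers in the labels are unique to each array, so the groups share no replicate number.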
